A study of Schizosaccharomyces pombe with 5 samples.

Results

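Fission yeast (Schizosaccharomyces pombe) takes up and assimilates ammonium through a small set of genes, and 8 of them were followed here as resting cells returned to growth. They were the ammonium transporter genes amt1, amt2 and amt3, the glutamate dehydrogenase genes gdh1 and gdh2, the glutamine synthetase gene gln1, the glutamate synthase gene glt1 and the asparagine synthetase gene asn1. Members were the spots whose only annotated gene was one of these 8 symbols. All 8 were found, each on 1 spot and with a value on all 5 arrays, out of 4797 genes measured on at least 1 array.

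The arrays compared growing cells with nitrogen-starved G0 cells, to follow expression from the resting state back into the cell cycle. Growing cells were taken 1, 2, 3.5 and 6 h after nitrogen came back, or during logarithmic (vegetative) growth in EMM2, a minimal medium. All cells were of the wild-type laboratory strain L972, in cultures each started from a single colony, and no mutant was used. G0 cells had spent 48 h at 26 °C in EMM2 without a nitrogen source. The time course cultures then received 4 volumes of fresh EMM2, so nitrogen and new medium arrived together. Each condition had 1 array and no experiment was repeated, so a value has no replicate behind it. In RNA of a whole culture, a change in every cell and a change in the share of cells that use a gene cannot be told apart. The values are ratios to G0 cells and give no level, so a marker of the resting state could be read only as higher or lower than in G0.

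Ammonium enters the cell through membrane transporters of the Amt/Mep family. It is built into glutamate by the NADP-dependent glutamate dehydrogenase, which joins it to 2-oxoglutarate, or into glutamine by glutamine synthetase, which spends ATP. Glutamate synthase passes the amide nitrogen of glutamine to 2-oxoglutarate and so closes the second route to glutamate. The NAD-dependent glutamate dehydrogenase runs the other way and releases ammonium from glutamate, and asparagine synthetase moves amide nitrogen from glutamine to aspartate. In fungi such genes are widely known to respond to the nitrogen source.

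Each value below is the log2 ratio of growing over G0 cells, so 1 is 2-fold higher and -1 is 2-fold lower in growing cells, and a gene beyond either limit is called 2-fold different. This is a limit of size and not a test. The base of the logarithm was taken as 2. The error between repeated spots of an array was 0.18 to 0.25 (pooled SD of the genes cdc2, nda3 and nuc1) and 0.38 to 0.47 (pooled SD of 12 unnamed positions printed in all 16 blocks). That error covers the printing and reading of spots and not the spread between cultures or RNA preparations. The columns came in 2 sets, since values of the 1 h and 2 h arrays carry 9 decimals and those of the other arrays 3, and the labels do not say whether one G0 preparation served all arrays.

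The 8 genes did not move together. Of the 40 values of the members, 20 were 2-fold different, and each of the 8 members was so on at least 1 array, as were 66.7% of the 4708 genes with all values. At 1 h, 3 members (amt2, glt1 and asn1) were 2-fold higher and 2 (gdh1 and gdh2) 2-fold lower, beside 23.4% and 22.6% of all genes. At 2 h gln1 joined the higher ones, which made 4 higher and 2 lower, beside 22.8% and 21.3% of all genes. At 3.5 h, 3 members (amt2, glt1 and asn1) were higher and 1 (amt3) lower, beside 18.9% and 16.7%. At 6 h, 2 members (gdh1 and asn1) were higher and 0 lower, beside 15.6% and 14.9%. In vegetative cells 1 member (gdh1) was higher and 2 (amt1 and gdh2) lower, beside 15.8% and 14.6%. Shares of so few members were not tested against those of all genes. The median of the members was 0.08, 0.71, 0.48 and 0.79 at 1, 2, 3.5 and 6 h, and -0.11 in vegetative cells, beside 0.06, 0.00, 0.14, 0.04 and 0.09 over all genes.

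**Figure D1:**
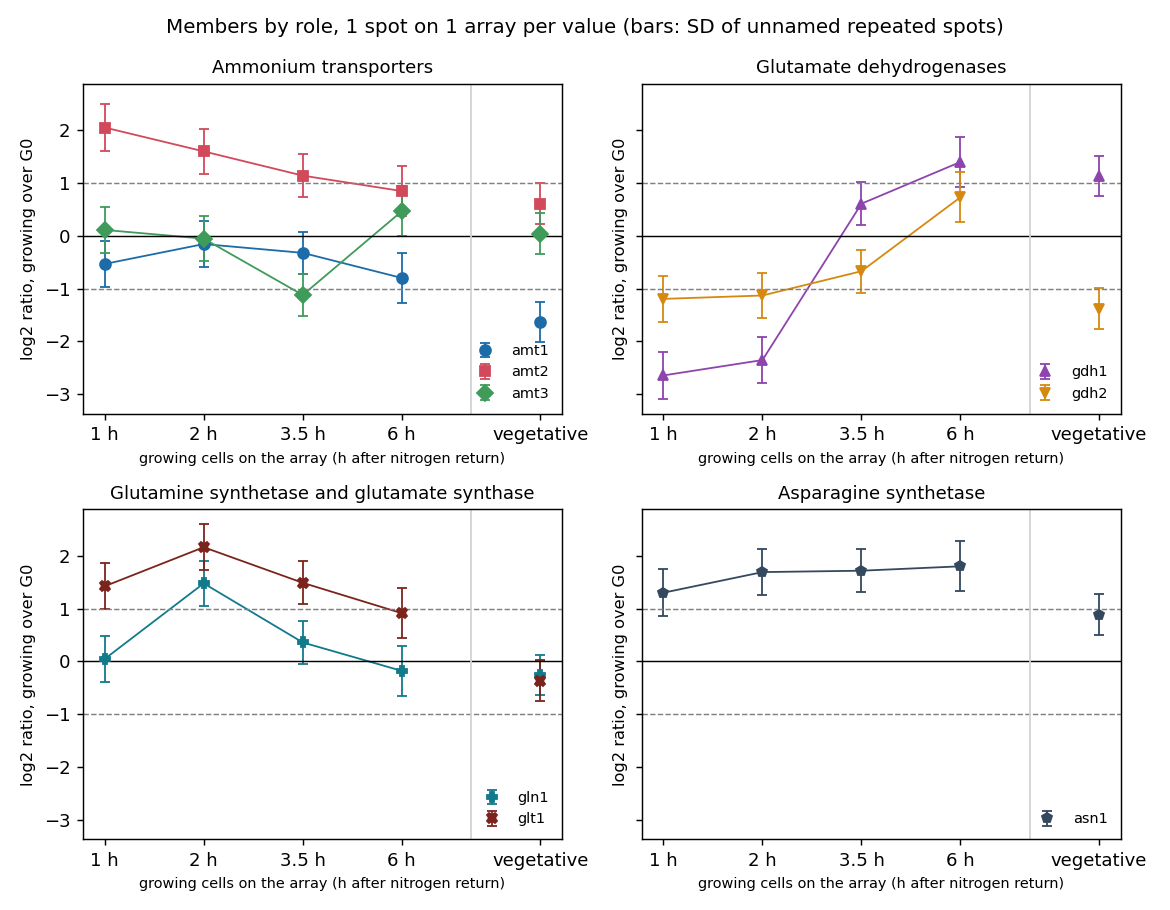
Log2 ratio of growing over G0 cells (y axis) on the 5 arrays (x axis) for the members in 4 panels by role, with lines through the time course, dashed lines at the 2-fold limits and bars of 1 SD of the unnamed repeated spots of that array. The gdh1 points lie at -2.64 and -2.35 at 1 and 2 h and at 0.61 and 1.40 at 3.5 and 6 h, whereas asn1 stays between 1.30 and 1.80 over the time course.

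The 3 ammonium transporter genes had different courses. The amt2 ratio was 2.05, 1.59, 1.14 and 0.84 at 1, 2, 3.5 and 6 h, and 0.61 in vegetative cells. It was above 0 on 5 of 5 arrays, 4.13-fold higher than G0 at 1 h, and each later value lay below the one before. These steps (-0.45, -0.46, -0.29 and -0.24) were each smaller than the spot SD of such a difference (0.59 to 0.62, unnamed positions). The 3.5 h value of amt2 was below the limit with arrays centred on their medians (0.998) or blocks centred (0.78). With blocks centred the 6 h value (0.81) was not below that at 3.5 h. The amt1 ratio was -0.53, -0.16, -0.32 and -0.80 at these times and -1.63 in vegetative cells. It was below 0 on 5 of 5 arrays, and only the vegetative value, 3.10-fold lower than G0, passed the limit. The amt3 ratio was 0.11, -0.06, -1.12 and 0.46 at these times, against 0.04 in vegetative cells. Its low value at 3.5 h stood alone, with the values before and after it within 1 SD of the unnamed spots from 0.

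Among the transporters amt2 held the highest ratio on all 5 arrays. The difference between amt2 and amt1 was 2.58, 1.75, 1.46, 1.64 and 2.24 in array order (1, 2, 3.5 and 6 h, then vegetative), larger than the spot error on each array. Between amt2 and amt3 it was 1.94, 1.65 and 2.26 at 1, 2 and 3.5 h, but only 0.38 at 6 h and 0.57 in vegetative cells, where the difference is of the size of the spot error. The order of amt3 and amt1 was not fixed: amt3 lay 0.10 above amt1 at 2 h, 0.80 below it at 3.5 h and 1.26 above it at 6 h. The share of all genes with a lower ratio was 90.0% for amt2 at 1 h and 72.7% in vegetative cells, and for amt1 33.5% at 1 h and 6.59% in vegetative cells.

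The glutamate dehydrogenase genes were the lowest members at 1 and 2 h. The ratio of gdh1, whose product makes glutamate from ammonium, was -2.64 at 1 h and -2.35 at 2 h, then 0.61 and 1.40 at 3.5 and 6 h. In vegetative cells it was 1.12. It was thus 6.25-fold lower than G0 at 1 h and 2.63-fold higher at 6 h. It was the 1 member to be 2-fold lower on some arrays and 2-fold higher on others, as were 2.91% of all genes. Its range over the 5 arrays, 4.04, was larger than that of 98.1% of genes. The ratio of gdh2, whose product releases ammonium, was -1.20, -1.13, -0.67 and 0.73 at 1, 2, 3.5 and 6 h, and -1.38 in vegetative cells. The 6 h array was the only one with gdh2 above G0, and there it was within the 2-fold limit. With arrays scaled to 1 spread, its 1 h and 2 h values were -0.96 and -0.997, within the limit. At 6 h both genes lay above G0, while in vegetative cells gdh1 lay 2.50 above gdh2 and the signs were opposite. At 1 and 2 h gdh1 lay below gdh2 by differences of -1.45 and -1.22.

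The step that separated low from high gdh1 was that between 2 and 3.5 h. The gdh1 ratio at 3.5 h was 2.96 above that at 2 h, a 7.77-fold difference and the 45th largest increase of 4767 genes. Inside the sets of columns the differences were smaller, 0.29 between 2 and 1 h and 0.79 between 6 and 3.5 h. The large step lies between the 2 sets, so the time and the set cannot be told apart for it. The gene also overlaps, in the RefSeq annotation, the protein-coding genes lmb1 and tti1 and 1 non-coding RNA gene. The lmb1 spot gave -2.35, -2.63, -3.03, -2.14 and -2.29 in array order, near gdh1 at 1 and 2 h and below it later. The tti1 spot stayed between -0.10 and 0.07. Of the other members, amt3 overlaps the protein-coding gene SPAC2E1P3.01 and gdh2 overlaps SPCC132.03. The SPAC2E1P3.01 spot gave -3.10, -3.89, -2.21, -2.14 and -1.19 in array order, 2-fold lower than G0 on each array, while amt3 was so only at 3.5 h. The SPCC132.03 spot gave -1.56, -2.60, -2.52, -2.76 and -3.12, below G0 on each array, as gdh2 was on all but the 6 h array. Whether signal from an overlapping gene reached the spot of a member was not tested. All 8 members overlap at least 1 annotated long non-coding RNA gene, and the sources used here do not say which strand a spot reads.

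A straight line through the 4 times was the one test the design allowed, with the scatter of 4 arrays around it as error. It was fitted for 4730 genes with limma, as log2 ratio against log2 hours. It called 9.15% of them at a Benjamini-Hochberg adjusted p under 0.05, 4.08% rising and 5.07% falling. Among the members only gdh1 was called, rising by 1.74 (SE 0.29) per doubling of time, with a limma adjusted p of 0.0316, and 99.6% of genes had a lower slope. The call was lost with limma when the set of columns was added as a term (slope 0.56, adjusted p 0.897) and with hours in place of log2 hours (adjusted p 0.0593). With either setting 0 of the 4730 genes were called. The gdh1 call was also lost without the 3.5 h array (slope 1.64, limma adjusted p 0.170) and without the 6 h array (slope 1.74, limma adjusted p 0.136). These fits called 0 and 7 of all genes. Without the 2 h array the slope was 1.60 and without the 1 h array 2.37, both called by limma, as were 1063 and 767 of the 4730 genes. With 1 residual degree of freedom, both fits took their error almost wholly from all genes together. Without the 2 h array the SE was 0.22 for each member. The slope of gdh2 was 0.71 (SE 0.22, limma adjusted p 0.0804) and that of amt2 -0.47 (SE 0.16, limma adjusted p 0.101), and neither passed. The slope of gdh2 passed limma without the 1 h array (1.17, adjusted p 0.0145) and without the 2 h array (0.66, adjusted p 0.0162). It also passed over all 4 times with a trended prior variance (limma adjusted p 0.0491), a fit that called 779 genes. The other 5 members had limma adjusted p between 0.501 and 0.973, among them gln1, whose slope was -0.17 over all 4 times and -1.05 without the 1 h array, where it was called (adjusted p 0.0279).

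The genes of the glutamine synthetase and glutamate synthase route had their highest ratios at 2 h. The glt1 ratio was 1.42, 2.16, 1.49 and 0.91 at 1, 2, 3.5 and 6 h, and -0.36 in vegetative cells. It was 4.47-fold higher than G0 at 2 h, and 91.7% of genes had a lower ratio there. The glt1 steps to and from 2 h (0.74 and -0.67) were within the 2-fold limit. They were little larger than the spot SD of such a difference (0.62 and 0.59, unnamed positions). The first passed the limit with blocks centred (1.05), and the second lies between the 2 sets of columns. In vegetative cells glt1 was within 1 SD of the unnamed spots from G0. The gln1 ratio was 0.05, 1.48, 0.36 and -0.18 at these times and -0.26 in vegetative cells. Only the 2 h value, 2.78-fold higher than G0, lay more than 1 SD of the unnamed spots from 0, and it rests on 1 spot of 1 array. The glt1 ratio exceeded that of gln1 by 1.38, 0.68, 1.13 and 1.09 at 1, 2, 3.5 and 6 h, and lay level with it in vegetative cells (-0.10).

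At 1 and 2 h glt1 was above G0 and gdh1 below it, while gln1, the other gene of the second route, was level with G0 at 1 h (0.05). The glt1 ratio lay above that of gdh1 by 4.07 at 1 h and 4.51 at 2 h. The difference was 0.88 at 3.5 h, then -0.48 at 6 h, which is of the size of the spot error, and -1.49 in vegetative cells, where gdh1 was the higher and glt1 was near G0. These are differences between ratios to G0. They do not compare the amounts of the 2 transcripts.

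Asparagine synthetase was above G0 on 5 of 5 arrays. The asn1 ratio was 1.30, 1.69, 1.72 and 1.80 at 1, 2, 3.5 and 6 h, and 0.89 in vegetative cells. It was the 1 member that was 2-fold higher on all 4 time course arrays, as were 9.26% of genes. With arrays scaled to 1 spread amt2 and glt1 were so too, each lowest at 6 h (1.03 and 1.11), as they were with values read as natural logs. The range of asn1 over the 5 arrays was 0.91, smaller than the median range of 1.20 over all genes, and 32.8% of genes had a smaller one. The other 7 members had ranges of 1.44 to 4.04, all above that median. With arrays scaled to 1 spread asn1 no longer had the smallest range of the members, its range then being 1.15 and that of amt2 0.92. At 6 h asn1 was 3.48-fold higher than G0 and 94.3% of genes had a lower ratio.

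**Figure D2:**
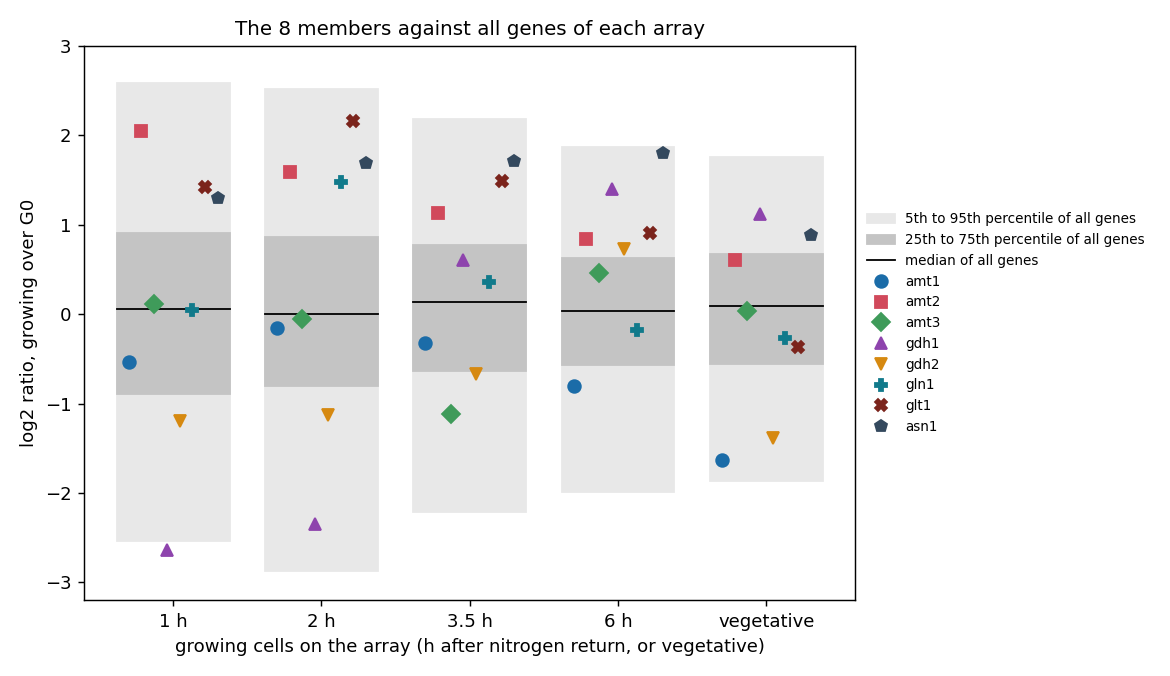
Log2 ratio of growing over G0 cells (y axis) of the 8 members (points) on each array (x axis), over the 5th to 95th (light) and 25th to 75th (dark) percentiles and the median of all genes. At 1 h gdh1 at -2.64 lies below the 5th percentile of -2.54, and the points of gdh1 and asn1 are the highest at 6 h and in vegetative cells.

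Successive arrays were also compared directly, as the difference of their ratios to G0. From these differences the SD due to spots would be 0.59 to 0.62 with the error of the unnamed positions and 0.30 to 0.34 with that of the named genes. Between 2 and 1 h, 1 member differed 2-fold, gln1 with 1.43, beside 12.2% of all genes (4.67% in that direction), and this was the 56th largest increase of 4755 genes. Between 3.5 and 2 h, 3 members did (gdh1, amt3 and gln1), beside 22.0% of all genes. Of these gdh1 was higher, beside 11.6%, and amt3 (-1.07) and gln1 (-1.12) were lower at 3.5 h, beside 10.4%. The gln1 difference was within the limit with arrays scaled to 1 spread (-0.93). For all 3 genes this step lies between the 2 sets of columns. Between 6 and 3.5 h, 2 members did, beside 6.98% in either direction and 4.13% higher. These were amt3, higher at 6 h by 1.58, and gdh2, higher by 1.40, the 49th and 74th largest increases of 4768 genes. Successive steps share an array, so 1 value can make 2 calls. The 2 h value of gln1, the 3.5 h value of amt3 and the 6 h value of gdh2 each entered 2 called steps.

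Vegetative cells differed from 6 h cells most in gdh2. Its ratio was 2.11 lower in vegetative cells, a 4.31-fold difference and the 6th largest decrease among 4756 genes. The glt1 ratio was 1.28 lower in vegetative cells, the 40th largest decrease. These were the 2 members past the limit, beside 5.57% of all genes in either direction and 2.54% lower. The asn1 (-0.91) and amt1 (-0.83) differences were below the limit, and 3.43% and 4.37% of genes lay lower. All 8 members had a lower ratio in vegetative cells than at 6 h, with a median difference of -0.63 beside 0.00 over all genes. These differences come from the same 2 arrays, so they are not 8 separate observations. For amt2 (-0.24), gdh1 (-0.27) and gln1 (-0.08) the difference was smaller than its spot SD from the named genes (0.30). That of amt3 (-0.42) was smaller than the spot SD from the unnamed positions (0.61).

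**Figure D3:**
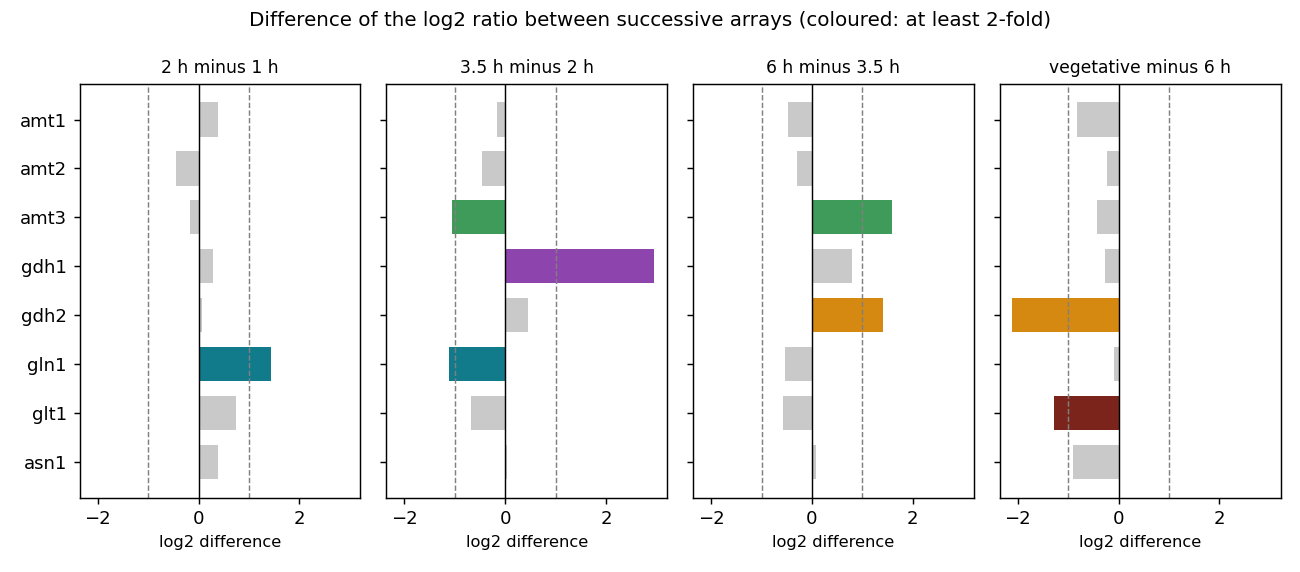
Difference of the log2 ratio between successive arrays, later minus earlier or vegetative minus 6 h (x axis, log2), for each member (rows), coloured where it was at least 2-fold and grey otherwise. The longest bars are gdh1 between 3.5 and 2 h (2.96) and gdh2 between vegetative cells and 6 h (-2.11).

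The enzymes that supply the carbon skeleton, 2-oxoglutarate, were represented by 5 genes with a value. At 1 h, 4 of the 5 were 2-fold lower than G0 and 1 was higher, beside 22.6% and 23.4% of all genes, and at 2 h 4 were lower and 0 higher, beside 21.3% and 22.8%. The lowest was the citrate synthase gene cit1 (-4.18), and the highest was idh1 (1.17), which encodes a subunit of NAD-dependent isocitrate dehydrogenase. The gene for its other subunit, idh2, was at -2.86. The list median was -2.47, -2.51, -0.36 and 0.26 at 1, 2, 3.5 and 6 h, and 0.07 in vegetative cells. The NADP-dependent isocitrate dehydrogenase gene idp1 had -1.69, -2.39, -0.28, 0.61 and 0.10 in array order. Between 3.5 and 2 h, 4 of the 5 genes were 2-fold higher at 3.5 h, beside 11.6% of all genes. As for gdh1, this step lies between the 2 sets of columns, and time and set cannot be told apart.

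Glutamine amidotransferases spend the amide nitrogen of glutamine, and 10 of their genes were measured. At 1 h, 6 of the 10 passed the limit above G0 and 0 below it, beside 23.4% and 22.6% of all genes. At 2 h 7 did above and 1 below, beside 22.8% and 21.3%. The highest at 1 h was ura1 (3.44), whose product starts pyrimidine synthesis with glutamine nitrogen, and the lowest was the NAD synthetase gene qns1 (-0.80), which was 2-fold lower at 2 h (-1.79). The median of these genes was 1.74, 1.95, 1.16 and 0.92 at 1, 2, 3.5 and 6 h, and 0.26 in vegetative cells. Past the limit were 5 above and 1 below G0 at 3.5 h (18.9% and 16.7% of all genes), 4 above and 0 below at 6 h (15.6% and 14.9%), and 1 above and 0 below in vegetative cells (15.8% and 14.6%).

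Genes that pass on the amino group of glutamate were mixed. Of 7 aminotransferase genes, 1 was 2-fold higher and 2 lower at 1 h, shares near the 23.4% and 22.6% of all genes, with the ornithine aminotransferase gene car2 highest (1.79) and the aspartate aminotransferase gene caa1 lowest (-1.30). The GABA aminotransferase gene uga1 was 2-fold lower on the 3.5 h (-1.96), 6 h (-2.20) and vegetative (-2.45) arrays. The aminotransferase median was 0.25, 0.74, 0.88, 0.76 and 0.14 in array order. Of 8 genes of arginine and proline synthesis, 1 was higher and 0 lower at 1 h, beside the same 23.4% and 22.6%, with the ornithine carbamoyltransferase gene arg3 highest (1.62) and the argininosuccinate synthase gene arg12 lowest (-0.94). Their median stayed between -0.29 and 0.27 on the 5 arrays.

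Of 4 regulators of nitrogen metabolism 0 were 2-fold different at 1 h, beside 23.4% of all genes higher and 22.6% lower. On the later arrays 0 were higher, and 2, 1, 1 and 2 were lower at 2, 3.5 and 6 h and in vegetative cells, beside 21.3%, 16.7%, 14.9% and 14.6% of all genes. The highest was gaf1 (0.99), which encodes a GATA-type transcription factor, and the lowest was isp7 (-0.82). The gaf1 ratio was 0.74, -0.28 and -0.57 at 2, 3.5 and 6 h, and -0.77 in vegetative cells, so it stayed within the 2-fold limit on all 5 arrays. The isp7 ratio was -1.07, -1.39 and -1.95 at these times and -3.09 in vegetative cells. The TOR kinase genes passed the limit once each, tor1 at 2 h (-1.12) and tor2 in vegetative cells (-1.01).

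**Figure D4:**
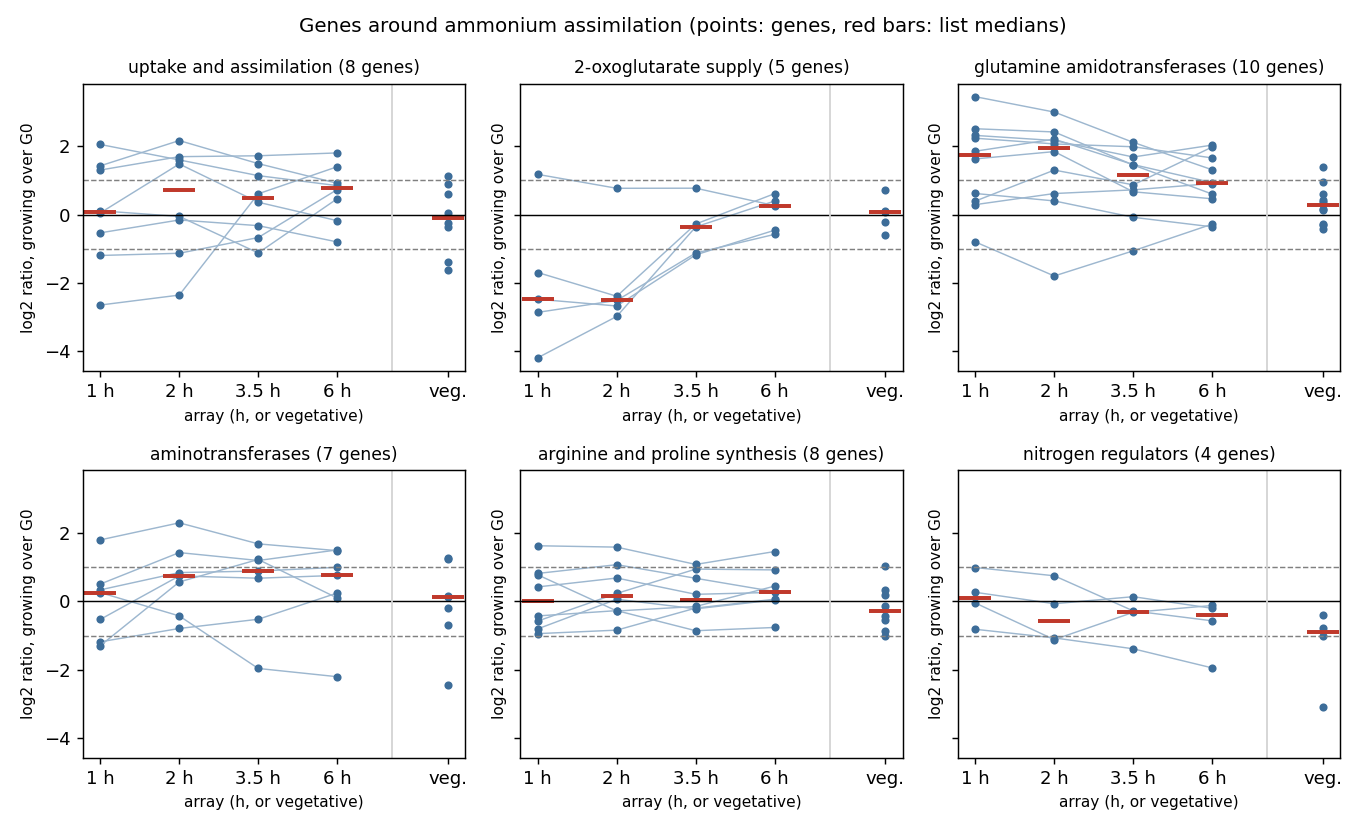
Log2 ratio of growing over G0 cells (y axis) on the 5 arrays (x axis) for the members and 5 lists of genes around them, with a point per gene, lines through the time course, red bars at list medians and dashed lines at the 2-fold limits. The median of the 2-oxoglutarate list lies at -2.47 and -2.51 at 1 and 2 h and at -0.36 and 0.26 at 3.5 and 6 h, and that of the amidotransferases is 1.95 at 2 h and 0.26 in vegetative cells.

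Genes with the most similar course were found for each member by Euclidean distance over the 5 arrays, among 4708 genes. The 3 nearest to amt2 were utp11, atl1 and cul4, at distances of 0.29, 0.32 and 0.38. The 3 nearest to asn1 were grs1 and vrs1, which encode glycyl- and valyl-tRNA synthetases, and rpm2, at 0.31, 0.37 and 0.38. The 3 nearest to glt1 were rrn3, rrp12 and mrd1, at 0.56, 0.66 and 0.73, and those to gln1 were omh5, trm140 and mex67, at 0.34, 0.47 and 0.65. For amt3 they were the histone H3 gene hht1 and the histone H4 genes hhf2 and hhf1, at distances of 0.51, 0.57 and 0.58. Their 3.5 h values were also low (-0.99, -0.77 and -0.97), which follows from the choice, since the distance includes that array. Histone gene copies may share signal on spots. The 3 nearest to amt1 were SPAC18B11.11, tra1 and dml1, at 0.31, 0.36 and 0.37.

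The dehydrogenases had fewer close neighbours. The gene nearest to gdh1 was gnd1, for 6-phosphogluconate dehydrogenase, at a distance of 1.09, with ratios of -2.49, -2.94, 0.61, 0.97 and 0.32 in array order, followed by sct1 (1.29) and the Hsp70 gene ssa2 (1.33). The genes nearest to gdh2 were maa1 (0.92), for mitochondrial aspartate aminotransferase, arg12 (0.97) and dni2 (1.03). Among the members themselves the closest pair was amt2 and glt1, at a distance of 1.33, which made amt2 only the 135th nearest gene to glt1. No member was among the 3 nearest genes of another.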

How the data were processed

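Fission yeast RNA was measured on 5 two-colour arrays, 1 per condition. Per the labels, Cy5 marked polyadenylated RNA (3 to 6 µg) of growing cells and Cy3 that of G0 cells. Each spot has a deposited log ratio, which was read as the log2 ratio of Cy5 over Cy3. The sources used here do not state the base, the image analysis or how ratios were corrected and normalized. No spot intensity was read, so dim spots were kept, and the number of arrays limits the precision. For 3 samples (3.5 h, 6 h and vegetative) a free-text field names 2 h, and the titles and sources were followed instead.

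Of 5184 spots, 4865 had 1 annotated gene, 22 several and 297 none; 4839 of the 4865 matched the RefSeq gene table (ASM294v3), used for names and overlaps. Spots of 1 gene were averaged, leaving out 1 nda3 spot that the authors' average omits. The trend used limma 3.58.1 (R 4.3.3), and other steps Python 3.11.15. On simulated data over 4730 genes the trend step recovered 174 of 200 genes changed by 1 on the log2 scale per doubling of time, with 16 false calls. The simulation held no difference between the 2 sets of columns, so it cannot show how such a difference would affect the calls. All members are named, with, of each list, the highest and lowest gene at 1 h and the 3 nearest genes of each member. Other named list genes (idh2, idp1, uga1, tor1, tor2) and overlapping genes were chosen after their values were seen. Members and lists were chosen with earlier results of these data known. Alternatives were centring, scaling, size limits, the base of the logarithm, repeated spots, missing values and the trend's design. Sequences were not used here, and 1 listed gene is not reported here.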

Additional observations from a re-analysis of the deposited data

Results flagged for a closer look

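The gdh1 ratio lay on opposite sides of G0 at different times. It was -2.64 at 1 h and -2.35 at 2 h, and 1.40 at 6 h and 1.12 in vegetative cells, each beyond the 2-fold limit. With 1 array a condition this difference between times has no test of its own beyond the trend fit of the time course, and the vegetative value was not tested. The low values come from the set of columns with 9 decimals and the high ones from the set with 3 decimals. With the set as a term, the limma slope over the time course was 0.56 per doubling of time (adjusted p 0.897), and 0 of 4730 genes were called. The gdh1 difference within each set was 0.29 (2 h minus 1 h) and 0.79 (6 h minus 3.5 h).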

How the results depend on the processing

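No called member value changed sign with arrays or blocks centred. Scaling and the base of the logarithm cannot change a sign, and the spot and missing-value settings left all member values as they were. With arrays scaled to 1 spread, gdh2 left the lower calls against G0 (1 lower at 1 h and 1 at 2 h), 4 members were higher at 6 h (amt2 1.03 and glt1 1.11 joined) and 2 in vegetative cells (asn1 1.06 joined); of the steps, gln1 left the calls between 3.5 and 2 h (-0.93), and gdh1 between 6 and 3.5 h (1.08) and asn1 between vegetative cells and 6 h (-1.13) joined them. With arrays or blocks centred, 2 members were higher at 3.5 h (amt2 left), beside 15.9% and 14.8% of all genes. With blocks centred, 2 members differed between 2 and 1 h (glt1 1.05 joined). For the steps, no share of all genes is given under the alternatives. At a 1.5-fold limit 4 members were higher and 2 lower at 3.5 h, beside 31.7% and 26.6% of all genes. At 6 h this limit gave 5 higher and 1 lower, beside 26.5% and 24.5%, and in vegetative cells 3 higher, beside 28.3%. In time order of the steps 2, 4, 3 and 4 members passed it. At a 3-fold limit there were 1 higher and 1 lower at 1 h, beside 15.3% and 13.1% of all genes. At 2 h there were 3 higher and 1 lower, beside 14.9% and 13.3%. At 3.5 h there were 1 higher and 0 lower (9.83% and 9.12%) and at 6 h 1 higher (7.47%). In vegetative cells there were 0 higher and 1 lower (6.76% and 7.18%). In time order of the steps 0, 1, 0 and 1 members differed. Read as natural logs, the values gave 5 higher and 1 lower at 6 h, beside 22.7% and 21.1% of all genes. In vegetative cells they gave 2 higher, beside 24.0%. Of the steps, 2 members differed between 2 and 1 h, 3 between 6 and 3.5 h and 4 between vegetative cells and 6 h. The median of repeated spots and genes with all values could change no count of members, since each member has 1 spot and all 5 values. The trend called 0 members with hours, with the set of columns as a term, without the 3.5 h array and without the 6 h array; it called 2 (gdh1 and gdh2) with a trended prior or without the 2 h array and 3 without the 1 h array. Over all genes it called 433, but 294 with centred arrays, 274 with scaled arrays, 779 with a trended prior, 767 without the 1 h array, 1063 without the 2 h array, 7 without the 6 h array, and 0 with hours, the set term or without the 3.5 h array (1361, 245 and 1032 at an unadjusted p under 0.05). The cause of these moves was not tested. No paired analysis was possible because each condition has 1 array. Each member rests on 1 spot per array, and dim spots could not be told from bright ones.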
